A study of Homo sapiens with 32 samples.

Results

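The 84 genes described here carry the symbols of cytosolic ribosomal proteins and were measured in HepG2 cells exposed to silver nanoparticles. They were chosen by symbol from the 13133 genes of the deposited table. Symbols beginning RPL, RPS or RPLP followed by a digit, and RPSA, gave 93 genes, from which 8 RPS6K kinases and 1 pseudogene were removed. Of the 84 members, 74 are core ribosomal proteins, 7 are paralogs (RPL7L1, RPL22L1, RPL26L1, RPL36AL, RPS4Y1, RPS4Y2 and RPS27L), and 2 are readthrough genes (RPL36A-HNRNPH2 and RPS10-NUDT3). The last, RPS19BP1, fits the symbol pattern but encodes a protein that binds RPS19 and is not a ribosomal protein.

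HepG2 is a cell line grown from a human liver tumor, a hepatocellular carcinoma. Cells were left untreated (NoNP) or given silver particles at 1.2 ug/mL coated with citrate, with polyethylene glycol (PEG) or with branched polyethylenimine (bPEI), and lysates were taken at 6, 12 and 24 h. All groups were the same cell line in culture, and no label tells whether the replicates were grown apart. The p-values therefore cover only how far these libraries spread, which may be technical. RNA was read by TempO-Seq, in which detector oligonucleotides are ligated on target transcripts and counted by sequencing, in 12 groups, 8 of 3 libraries and 4 of 2. The groups of 2 were NoNP and bPEI at 24 h and PEG and citrate at 6 h. Hepatocyte markers were present in every library, with ALB between 89911 and 268230 normalized reads, while COL1A2, COL3A1 and KRT5, which mark other cells, had a median of 0. Of the other markers listed for other cell types, CD68 (median 84.9, 33.9 to 216) and ACTA2 (median 88.7, 26.1 to 324) were read in every library, PECAM1 had a median of 10.3 and COL1A1 of 1.44. Their part in the results was not tested.

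Cytosolic ribosomal proteins are made in nearly equal amounts, because each ribosome needs 1 copy of almost every one. The small subunit (RPS genes) reads the messenger RNA, the large subunit (RPL genes) joins amino acids, and the acidic stalk proteins RPLP0, RPLP1 and RPLP2 recruit elongation factors. Their messenger RNAs are abundant and typically start with a cytosine followed by a run of pyrimidines, the 5' terminal oligopyrimidine (TOP) motif, through which mTORC1 and LARP1 set their translation and stability. TempO-Seq counts transcripts and not translation. In lysates of whole cultures, fewer cells of a kind and less RNA per cell cannot be told apart.

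The start of 67 members was in the RefSeq promoter table (GRCh38.p14), and 43 of these (64.18%) began with C followed by at least 4 pyrimidines, against 4.043% of all 27305 promoters. A run of at least 6 pyrimidines within 10 bases of the start was found in 77.61% of the members and 22.77% of all promoters. The 9 members below recur in the results, and each line gives 40 bases before the start and 25 from it on, read 5' to 3' along the gene's strand, with the longest pyrimidine run within 10 bases of the start in capitals.

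RPS3A: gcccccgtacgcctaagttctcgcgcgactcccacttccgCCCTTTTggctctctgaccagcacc
RPS6: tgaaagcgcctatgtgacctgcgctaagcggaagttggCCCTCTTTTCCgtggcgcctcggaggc
RPS21: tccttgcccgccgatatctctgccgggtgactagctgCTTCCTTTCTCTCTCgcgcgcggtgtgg
RPS27: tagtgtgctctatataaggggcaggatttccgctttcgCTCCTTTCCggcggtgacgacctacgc
RPL35A: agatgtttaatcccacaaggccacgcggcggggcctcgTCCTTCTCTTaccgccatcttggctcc
RPLP0: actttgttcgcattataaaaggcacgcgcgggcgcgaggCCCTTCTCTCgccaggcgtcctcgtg
RPS9: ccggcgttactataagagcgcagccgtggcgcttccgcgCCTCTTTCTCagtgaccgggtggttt
RPS4X: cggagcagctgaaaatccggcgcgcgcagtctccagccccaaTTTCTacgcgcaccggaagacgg
RPS27L: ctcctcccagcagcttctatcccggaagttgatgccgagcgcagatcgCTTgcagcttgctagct

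These windows lie at chr4:151099588-151099652 (plus strand, RPS3A), chr9:19380212-19380276 (minus strand, RPS6), chr20:62387063-62387127 (plus strand, RPS21), chr1:153990722-153990786 (plus strand, RPS27), chr3:197950150-197950214 (plus strand, RPL35A), chr12:120201087-120201151 (minus strand, RPLP0), chr19:54200818-54200882 (plus strand, RPS9), chrX:72277224-72277288 (minus strand, RPS4X) and chr15:63157453-63157517 (minus strand, RPS27L). Of the 9, RPS4X and the paralog RPS27L had the shortest runs, of 5 and 3 pyrimidines, and the longest, 15, was in RPS21. In the 300 bases from 250 before to 50 after the start, searched on both strands, the ETS-type motif CCGGAAG occurred in 32.84% of members and 10.67% of all promoters, and the YY1-type motif AAGATGG in 13.43% and 6.061%. TATAAA occurred in 8.955% of members and 11.95% of all promoters, GGGCGG in 53.73% and 44.59%, and the E box CACGTG in 5.97% and 7.435%. A match is a run of letters and not a measured site.

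The members took a large part of the reads. Read depth per library ran from 1313855 to 6735072 with a median of 3373855, and the members held 4.56% to 7.54% of the reads of a library (median 6.06%). They made up 9 of the 61 genes with a mean normalized level of at least 5000, 37 of 1059 between 500 and 5000, 24 of 3975 between 50 and 500 and 13 of 4229 between 5 and 50. The highest means were RPS27 (23395), RPLP2 (14373), RPS3 (12552), RPL37 (10135) and RPS3A (9989.7 normalized reads). The lowest among the 83 members tested were RPS10 (5.68), RPL31 (8.97), RPS4Y2 (12.03), RPL14 (15.3) and RPS15A (16.2), and RPS10-NUDT3 (0.847) was below the mean of 5 required for a test. Each gene is read by its own detector oligonucleotides, so the order of genes by level also reflects their detectors, and differences were tested only between libraries. Ribosomal protein genes have many near-identical processed pseudogene copies, and how the detectors treat them is unknown here.

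In 2 libraries the members stood apart from the others of their group. Their median level on the log2(value + 1) scale was 8.11 in bPEI 6 h replicate B against 9.32 and 9.35 in replicates A and C. It was 8.85 in NoNP 24 h replicate B against 9.62 in the other 24 h control, and these were the 2 lowest of the 32 libraries. Counts that move without them are given both ways. Where neither is in the groups compared, leaving them out changes the spread and the genes tested, not the log2 differences. These 2 libraries stand apart in the same member values that are then counted, so such fits are no independent check. Leaving out NoNP 24 h replicate B leaves a single library in that group, the one with the higher member median. Lower calls against it follow in part from that choice. The share of all genes called was counted only in the main fit and with equal library totals. Member counts from other fits have no background.

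The share of reads in the member genes was lowest at 6 h with bPEI and highest at 12 h. With NoNP it was 5.76%, 6.06% and 6.16% at 6 h, 6.76%, 5.94% and 6.74% at 12 h, and 6.77% and 5.31% at 24 h. With bPEI it was 5.26%, 4.56% and 5.57% at 6 h, 6.93%, 7.02% and 6.97% at 12 h, and 6.32% and 5.70% at 24 h. Every bPEI library at 6 h lay below every NoNP library of that time, and the same held without replicate B. PEG libraries had 6.14% and 4.87% at 6 h, 7.54%, 5.78% and 7.25% at 12 h, and 6.44%, 6.06% and 5.54% at 24 h. Citrate libraries had 5.76% and 5.60% at 6 h, 7.21%, 6.81% and 5.34% at 12 h, and 6.11%, 5.84% and 5.27% at 24 h. PEG overlapped NoNP at every time, and so did citrate, at 6 h only by its higher library, which like the lowest control had 5.76%. Without RPS27, the member with the most reads, the means at 6 h were 5.30% in NoNP and 4.65% with bPEI. No test was made of the share, since the members were chosen.

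**Figure D1:**
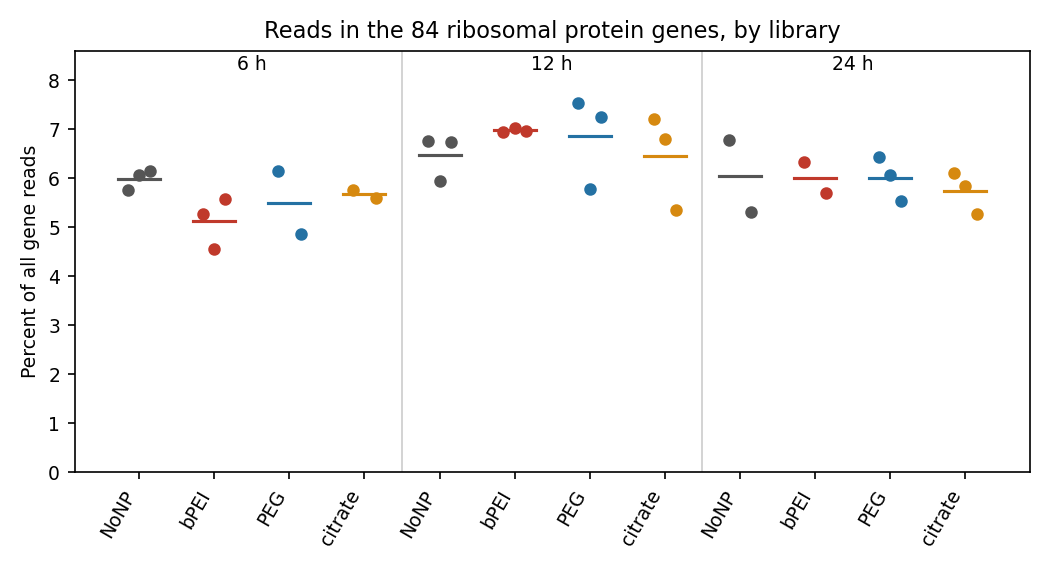
Share of all gene reads that fell on the 84 ribosomal protein genes, in percent, for each of the 32 libraries (points) with the mean of each group (lines), by exposure and time. The 3 bPEI libraries at 6 h lie between 4.56% and 5.57%, below the 3 NoNP libraries of that time at 5.76% to 6.16%, and the 3 bPEI libraries at 12 h lie between 6.93% and 7.02%.

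At 6 h, 8 of 83 members were lower with bPEI than with NoNP and none was higher, a share of 9.64% against 2.01% of all 9324 tested genes called in either direction, 0.686% higher and 1.32% lower (limma, adjusted p under 0.05). The median log2 difference of the members was -0.32 against -0.01 for all genes, and 57 of 83 members were below 0. Above 0 were 31.3% of the members and 49.6% of all genes. Among the lower members were small subunit proteins RPS3A, RPS6 and RPS21, large subunit proteins RPL10, RPL30 and the RPL26 paralog RPL26L1, and the stalk base RPLP0. Grouped by symbol alone, the median was -0.39 over 35 small subunit members, RPS19BP1 counted with them, and -0.32 over 45 large subunit members, with RPL36A-HNRNPH2.

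RPS3A, a small subunit protein near the exit of the messenger RNA channel, had 12482, 11217 and 11204 normalized reads in the controls and 7374, 5438 and 7965 with bPEI. All 3 exposed libraries lay below all 3 controls, by log2 -0.77 (SE 0.15, limma adjusted p = 0.00733). With PEG at 6 h the values were 11873 and 9179, and with citrate 10702 and 9019. RPL30, a large subunit protein, had 2467, 2368 and 2421 in the controls and 1079, 405 and 1232 with bPEI, so that replicate B was the lowest of the 3. The difference was log2 -1.57 (SE 0.36, limma adjusted p = 0.0281). The PEG libraries had 1847 and 1311 and the citrate libraries 1916 and 1096, also all below the controls, with log2 differences of -0.64 and -0.74 that did not pass (limma adjusted p = 0.683 and 0.516).

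RPS6, the small subunit protein phosphorylated by S6 kinases, had 1525, 2547 and 2243 in the controls and 1445, 918 and 1402 with bPEI. The difference was log2 -0.74 (SE 0.19, limma adjusted p = 0.039). RPLP0, which anchors the stalk, had 3493, 4469 and 4091 against 2687, 1243 and 2678, with replicate B far below its partners. RPL10, a late-joining large subunit protein, had 11501, 9918 and 9917 against 5828, 8173 and 6885, and here replicate B was the highest of the 3 exposed libraries. None of these 3 genes overlapped between the groups. RPS21 and RPL26L1 were lower by 1.01 and 1.51 on the log2 scale (limma adjusted p = 0.0385 and 0.0373), with no overlap between groups. These genes were named because they were called, so their separation follows in part from that choice. How many of all tested genes separated in this way was not counted. Both limits also hold for the other called genes described as separate from NoNP at a given time.

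The count of 8 depended on single libraries. It was 0 without bPEI replicate B, 18 without bPEI replicate A, 21 without replicate C, 3 without NoNP replicate A and 1 without either NoNP replicate B or C. It was 5 with both libraries that stand apart left out, of which RPS3A, RPL30 and RPL10 were among the 8, 4 with edgeR on the recovered reads, 3 with equal library totals, 15 with 1 variance weight per group and 0 when the spread came from the 6 libraries alone. With equal library totals 138 of all genes were called, 68 of them lower, and the other alternatives had no such count. RPS3A kept its call in 14 of 16 alternatives, RPL30 in 11, RPS21 in 10, RPL26L1 and RPS6 in 9, RPL10 in 8 and RPLP0 in 6. With both libraries that stand apart left out the log2 differences were -0.60 for RPS3A, -1.07 for RPL30 and -0.72 for RPL10, which passed, and -0.58 for RPLP0, -0.98 for RPL26L1, -0.70 for RPS21 and -0.53 for RPS6, which did not.

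No member passed for PEG or citrate at 6 h. For PEG 7 members had an unadjusted p under 0.05, edgeR called 0, and 0.0215% of all genes were called by limma. For citrate 10 members had an unadjusted p under 0.05, edgeR called 0, and 0.279% of all genes were called by limma. The members' medians were -0.23 with PEG and -0.09 with citrate, against 0.01 and -0.00103 for all genes. With both libraries that stand apart left out, 2 members were called for PEG and 4 for citrate. The smallest p with PEG belonged to RPS21 (log2 -0.89, limma adjusted p = 0.403), RPS4X (log2 0.81, limma adjusted p = 0.471) and RPS6 (log2 -0.55, limma adjusted p = 0.504). With citrate it belonged to RPL10 (log2 -0.59, limma adjusted p = 0.17), RPL8 (log2 0.73, limma adjusted p = 0.185) and RPS27 (log2 -0.49, limma adjusted p = 0.348). Across the 3 coatings at 6 h no member differed (0.107% of all genes, 12 members at an unadjusted p under 0.05, edgeR 0), and RPS3A came nearest with a limma adjusted p of 0.303.

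**Figure D2:**
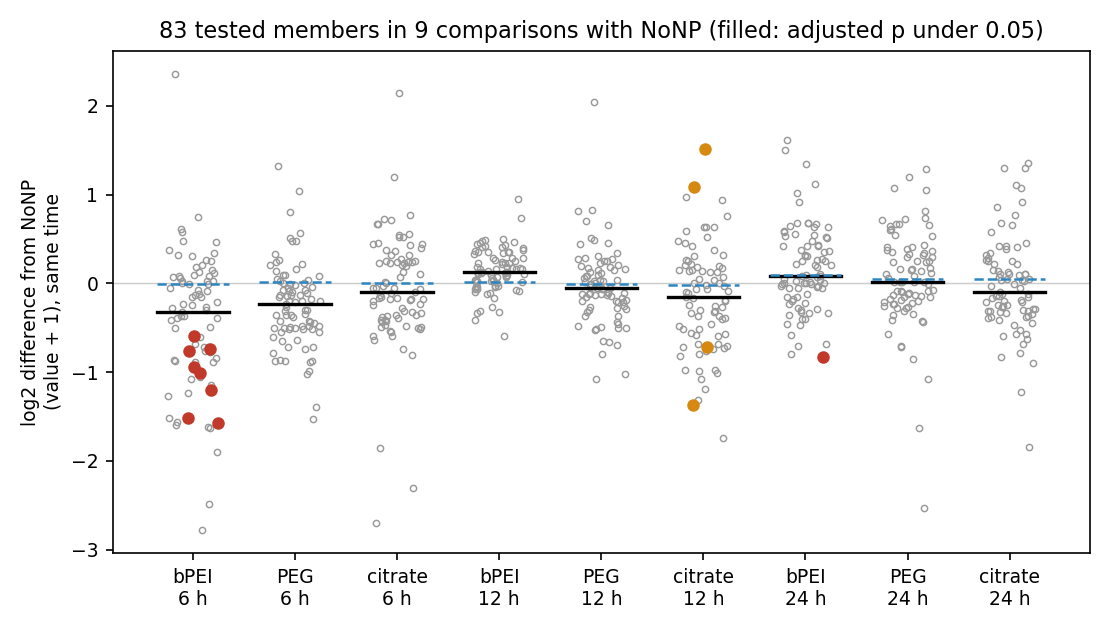
Difference of each of the 83 tested members from NoNP at the same time, on the log2(value + 1) scale, for the 3 coatings at 6, 12 and 24 h. Open points did not pass, filled points passed (limma adjusted p under 0.05), black lines are the members' medians and dashed lines the medians of all 9324 tested genes. The 8 filled points of bPEI at 6 h are all below 0, and citrate at 12 h has 2 above and 2 below.

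At 12 h the bPEI cells no longer stood below the controls. No member was called (0.0965% of all genes), 1 had an unadjusted p under 0.05, and edgeR called 0. Above 0 were 64 of 83 members (77.1%, against 51.4% of all genes), with a median of 0.13 against 0.01 for all genes. RPS3A had 11362, 11462 and 12049 with bPEI and 11333, 9897 and 11361 in NoNP, and RPL30 had 3179.8, 3255 and 2727 and 3089.8, 2803 and 2699. Among the 3 smallest p were those of RPL35 (log2 0.74, limma adjusted p = 0.263) and RPS23 (0.43). For PEG at 12 h no member was called by limma (0.654% of all genes), 6 had an unadjusted p under 0.05, and edgeR called 1. The nearest with PEG were RPL35 (log2 0.82, limma adjusted p = 0.0511), RPS4X (log2 0.83, limma adjusted p = 0.141) and RPS27L (log2 -1.02, limma adjusted p = 0.224), and 1 member passed without NoNP replicate C or without PEG replicate B.

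With citrate at 12 h, 2 members were higher and 2 lower. That is 4.82% of the members, against 6.12% of all genes (3.88% higher and 2.24% lower), and the members' median was -0.15 against -0.02 for all genes. RPS4X, the X-linked copy of a small subunit protein, had 706, 546 and 787 in the controls and 2252, 2184 and 1434 with citrate. The groups did not overlap, and the difference was log2 1.51 (SE 0.25, limma adjusted p = 0.000496). The values with PEG were 1383, 855 and 1447 and with bPEI 829, 795 and 914, all above the highest control too.

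RPS27L, the paralog of RPS27, had 183, 206 and 165 in the controls and 88.1, 68.2 and 58.5 with citrate. All citrate libraries lay below all controls, by log2 -1.37 (SE 0.35, limma adjusted p = 0.018). RPS6 had 3860.0, 3849 and 3779 in NoNP and 2541, 2351 and 2118 with citrate, without overlap, a difference of log2 -0.72 (SE 0.19, limma adjusted p = 0.0235). RPS4X kept its call in 16 of 16 alternatives, RPS27L in 12 and RPS6 in 10. Single libraries were left out only from the groups compared, and neither library that stands apart belongs to them. With equal library totals 652 of all genes were called, 485 of them higher, and the other alternatives had no such count. The count was 2 without NoNP replicate A and 1 without NoNP replicate B or citrate replicate B. It was 7 with equal library totals (5 higher), 6 with edgeR, 17 with both libraries that stand apart left out, 15 with the spread of the 6 libraries alone, 14 with group weights and 2 (RPS4X and RPS27L) with each library's trend over GC content removed.

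RPS4X was also the one member that differed among the 3 coatings at 12 h, where 0.418% of all genes passed (limma F test, adjusted p = 0.0493). It was lost when any 1 of bPEI replicates A, B and C, PEG replicate A and citrate replicates A, B and C was left out, with no filter on low values and with the GC trend removed. The count rose to 14 with the spread of these libraries alone, and to 13 with both libraries that stand apart left out or with group weights.

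**Figure D3:**
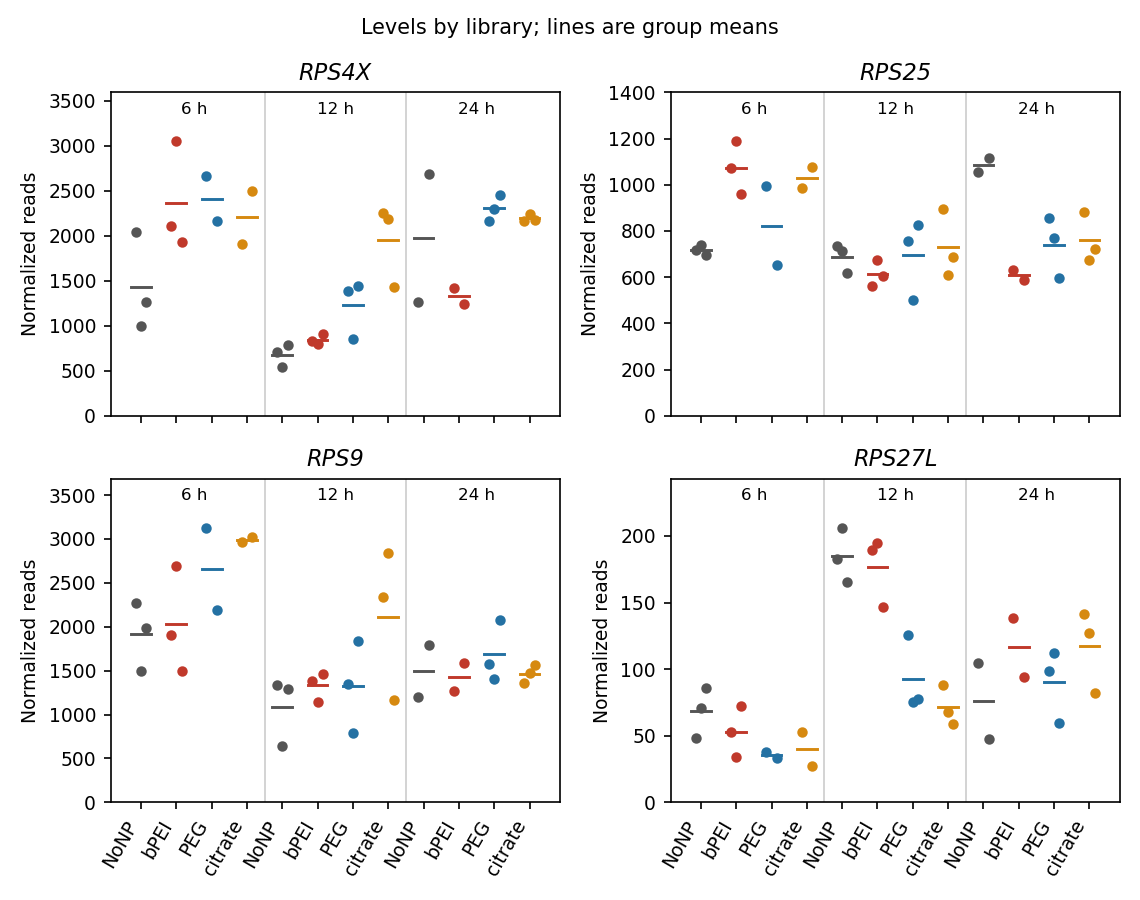
Normalized reads of RPS4X, RPS25, RPS9 and RPS27L in each of the 32 libraries (points) with group means (lines), by exposure and time, with axes from 0. At 12 h RPS4X lies at 546 to 787 in NoNP and at 1434 to 2252 with citrate, and RPS27L at 165 to 206 in NoNP and 58.5 to 88.1 with citrate.

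At 24 h a single member was called. RPS25, a small subunit protein, had 1054 and 1118 in the 2 NoNP libraries and 630.3 and 587 with bPEI, a difference of log2 -0.83 (SE 0.24, limma adjusted p = 0.0418), where 4.55% of all genes passed, 3.05% higher and 1.5% lower. The groups did not overlap, but the call held in 5 of 14 alternatives. The count for bPEI was 21 without NoNP replicate A, 2 without NoNP replicate B and 0 without either bPEI replicate, and edgeR called 0. For PEG no member was called (2.83% of all genes, 6 members at an unadjusted p under 0.05, edgeR 0). The nearest were RPL23A (log2 0.67, limma adjusted p = 0.138), RPL36A-HNRNPH2 (log2 1.28, limma adjusted p = 0.171) and RPS25 (log2 -0.57, limma adjusted p = 0.171). For citrate no member was called (4.2% of all genes, 7 members at an unadjusted p under 0.05, edgeR 0), and RPS27 was nearest (log2 -0.57, limma adjusted p = 0.0996), followed by RPL36A-HNRNPH2 (log2 1.36, limma adjusted p = 0.127) and RPS6 (log2 -0.56, limma adjusted p = 0.141). The 24 h controls decide these counts, which became 9 and 3 for PEG and 3 and 6 for citrate without NoNP replicate A and B, and with both libraries that stand apart left out 2 for bPEI, 12 for PEG and 14 for citrate. No member differed among the coatings at 24 h (0.15% of all genes, 5 members at an unadjusted p under 0.05, edgeR 0), the nearest being RPS23 with a limma adjusted p of 0.361.

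Averaged over the 3 times, RPS4X was higher with 2 of the coatings. With citrate it was higher by log2 0.81 (SE 0.16, limma adjusted p = 0.000964), and with PEG by log2 0.65 (SE 0.16, limma adjusted p = 0.0131). With citrate 7 members differed on average, 8.43% of the members against 11.4% of all genes (6.52% higher and 4.88% lower). RPL23A and RPL18, both of the large subunit, were among the members higher besides RPS4X (log2 0.48 and 0.64), and RPS6, RPS27 and RPS21, all of the small subunit, were lower (log2 -0.58, -0.47 and -0.58). With PEG 2 members differed, both higher and RPS4X among them, against 3.94% of all genes (1.99% higher and 1.94% lower). No member was called for bPEI (2.45% of all genes, 4 members at an unadjusted p under 0.05, edgeR 0), with RPS3A (log2 -0.22, limma adjusted p = 0.243) and RPS6 (log2 -0.27, limma adjusted p = 0.28) among the nearest.

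RPS4X and RPS6 kept their citrate calls in 26 of 26 alternatives, RPS27 in 25, RPS21 in 23, RPL23A in 22 and RPL18 in 11. With both libraries that stand apart left out the counts were 32 for citrate (9 higher), 25 for PEG (4 higher) and 6 for bPEI, and without NoNP 24 h replicate B alone they were 22, 17 and 5. Other single libraries gave 4 for citrate (without NoNP 12 h replicate B or citrate 6 h replicate C), and 1 (without NoNP 12 h replicate B, PEG 6 h replicate C or PEG 12 h replicate C) or 4 (without PEG 6 h replicate A) for PEG, while bPEI had 1 without NoNP 24 h replicate A. With the GC trend of each library removed, citrate had 9 calls of which 2 were higher, and PEG had 3 of which 1 was higher. Equal library totals gave citrate 10 calls of which 7 were higher, against 1199 of all genes, 918 of them higher. Fits without a NoNP 24 h library hold a single library in that group, and the share of all genes called in them was not counted. NoNP 24 h replicate B was low in the members. Lower calls without it follow in part from its removal.

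From 6 to 12 h, averaged over the 4 exposures, 25 of 83 members rose and 9 fell. That is 41% of the members, against 43.5% of all genes, but 30.1% of the members rose against 22.2% of all genes and 10.8% fell against 21.3%. The median difference was 0.24 for the members and 0.03 for all genes. By the same grouping by symbol it was 0.30 over the 35 small subunit members and 0.20 over the 45 large subunit members. Of the 25 that rose, 15 were of the small subunit, 8 of the large subunit and 2 of the stalk (RPLP0 and RPLP2).

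RPS6 showed the smallest p of all members. Its lowest, median and highest values were 918, 1485 and 2547 at 6 h (10 libraries) and 2118, 3680.0 and 3887 at 12 h (12 libraries). Within each of the 4 exposures every 12 h library lay above every 6 h library, and the averaged rise was log2 1.10 (SE 0.10, limma adjusted p = 3.13e-10). RPS27, the member with the most reads, went from 12658, 15783 and 22975 to 20641, 31542 and 36584, also without overlap in any of the 4 exposures, with log2 0.85 (SE 0.09, limma adjusted p = 1.07e-08). RPS21 went from 203, 407 and 769 to 415, 889 and 1089, with log2 1.02 (SE 0.14, limma adjusted p = 4.05e-07), and separated in all 4 exposures too.

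RPS27L went from 26.9, 50.5 and 85.6 to 58.5, 136 and 206, with log2 1.36 (SE 0.19, limma adjusted p = 6.27e-07). RPLP0 went from 1243, 2979 and 4469 to 3776, 5669 and 6332, with log2 0.88 (SE 0.14, limma adjusted p = 5.18e-06). RPL35A, a large subunit protein mutated in some patients with Diamond-Blackfan anemia, went from 88.9, 523 and 894 to 597, 1526 and 1812, with log2 1.46 (SE 0.24, limma adjusted p = 3.3e-05). All 3 separated within each exposure, and so did RPS15A, whose values were low, at 0, 8.15 and 16.7 and 11.7, 29 and 51.7, for 7 members in all. How many of all tested genes separated in this way was not counted, so the 7 have no background to be read against.

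RPS4X went the other way. It was at 999.7, 2078 and 3051 at 6 h and 546, 885 and 2252 at 12 h, a fall in all 4 exposures and with log2 -0.92 (SE 0.13, limma adjusted p = 1.34e-06). RPS9, a small subunit protein, went from 1491, 2232 and 3126 to 639.9, 1344 and 2838, with log2 -0.78 (SE 0.16, limma adjusted p = 0.000346), and was the 1 falling member whose 6 and 12 h libraries separated in every exposure. RPS25 (log2 -0.41), RPS10 (-2.07) and RPS3 (-0.33) also fell, as did RPL41, RPL18 and RPL8. With the GC trend of each library removed RPL18 did not pass (log2 -0.13, limma adjusted p = 0.577), and RPL8 was at 0.15 (limma adjusted p = 0.242). Of the 25 risers 21 had a higher mean in all 4 exposures and 4 in 3 of them, and of the 9 fallers 8 were lower in all 4 and 1 in 3.

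**Figure D4:**
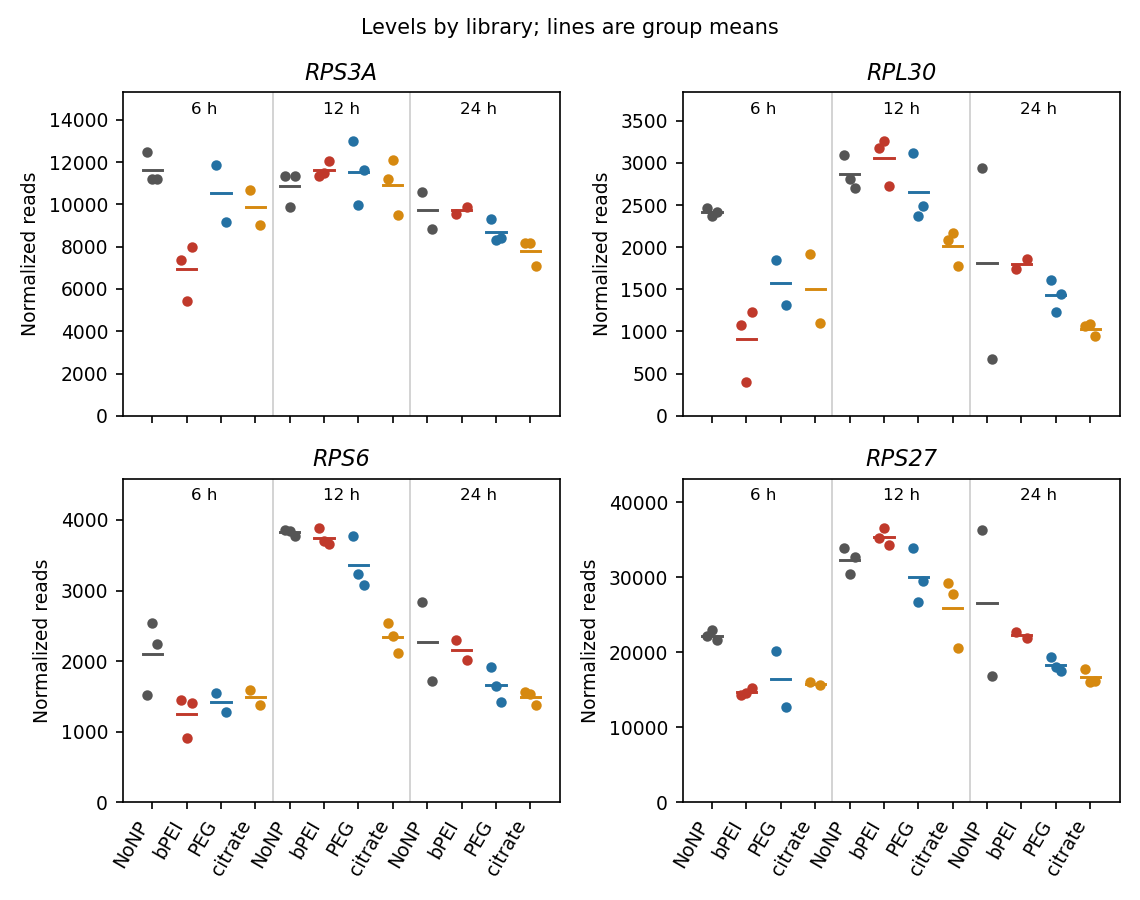
Normalized reads of RPS3A, RPL30, RPS6 and RPS27 in each of the 32 libraries (points) with group means (lines), by exposure and time, with axes from 0. RPS6 and RPS27 are higher at 12 h than at 6 h in every exposure, and RPS3A and RPL30 have their lowest group means with bPEI at 6 h.

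From 12 to 24 h most called members fell. Averaged over the exposures, 25 members fell and 5 rose, 36.1% of the members against 38.4% of all genes. For falls alone the shares were 30.1% of members and 20% of all genes, and for rises 6.02% and 18.4%. The members' median was -0.29 against -0.06 for all genes. All 25 falls went the same way in each of the 4 exposures, and in 4 members every 24 h library lay below every 12 h library of its exposure. The same was not counted over all tested genes.

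RPS6 was at 1382, 1685 and 2837 at 24 h (10 libraries), with log2 -0.81 (SE 0.10, limma adjusted p = 1.2e-07). RPS26, a small subunit protein, went from 45.2, 69.2 and 88.9 to 13, 22 and 32.2, with log2 -1.66 (SE 0.22, limma adjusted p = 2.4e-07). RPLP0 was at 1462, 2986 and 4087, with log2 -0.91 (SE 0.14, limma adjusted p = 3.51e-06), and these 3 and RPS7 were the 4 that separated in every exposure. RPL10 went from 8567, 10196 and 12847 to 5017, 6229.8 and 8573, with log2 -0.65 (SE 0.08, limma adjusted p = 2.04e-07). RPS27 was at 16076, 17908 and 36314, with log2 -0.59 (SE 0.09, limma adjusted p = 7.06e-06), and its highest value was NoNP replicate A, which did not fall below its 12 h controls. RPL35 fell too (log2 -0.64, limma adjusted p = 1.81e-05).

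RPS4X had the smallest p among the rises, at 1246, 2174 and 2686 and with log2 0.81 (SE 0.13, limma adjusted p = 1.17e-05). The other 4 rises were RPL8 (log2 0.31), RPL18 (0.47), RPS4Y1 (0.70) and RPS10 (1.36), and none of the 5 separated library by library in all 4 exposures. RPS4X kept its call in all 32 alternatives, while RPL8 lost it in 4 of 32, RPS4Y1 in 11 of 32, RPL18 in 18 of 32 and RPS10 in 18 of 30, and with 1 variance weight per group all 4 lost it. The steps from 6 to 12 h and from 12 to 24 h share the 12 h libraries, so their values are set side by side only. RPS3A differed by 0.24 in the first step and -0.33 in the second, and RPL30 by 0.84 and -0.91, all 4 past the threshold.

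**Figure D5:**
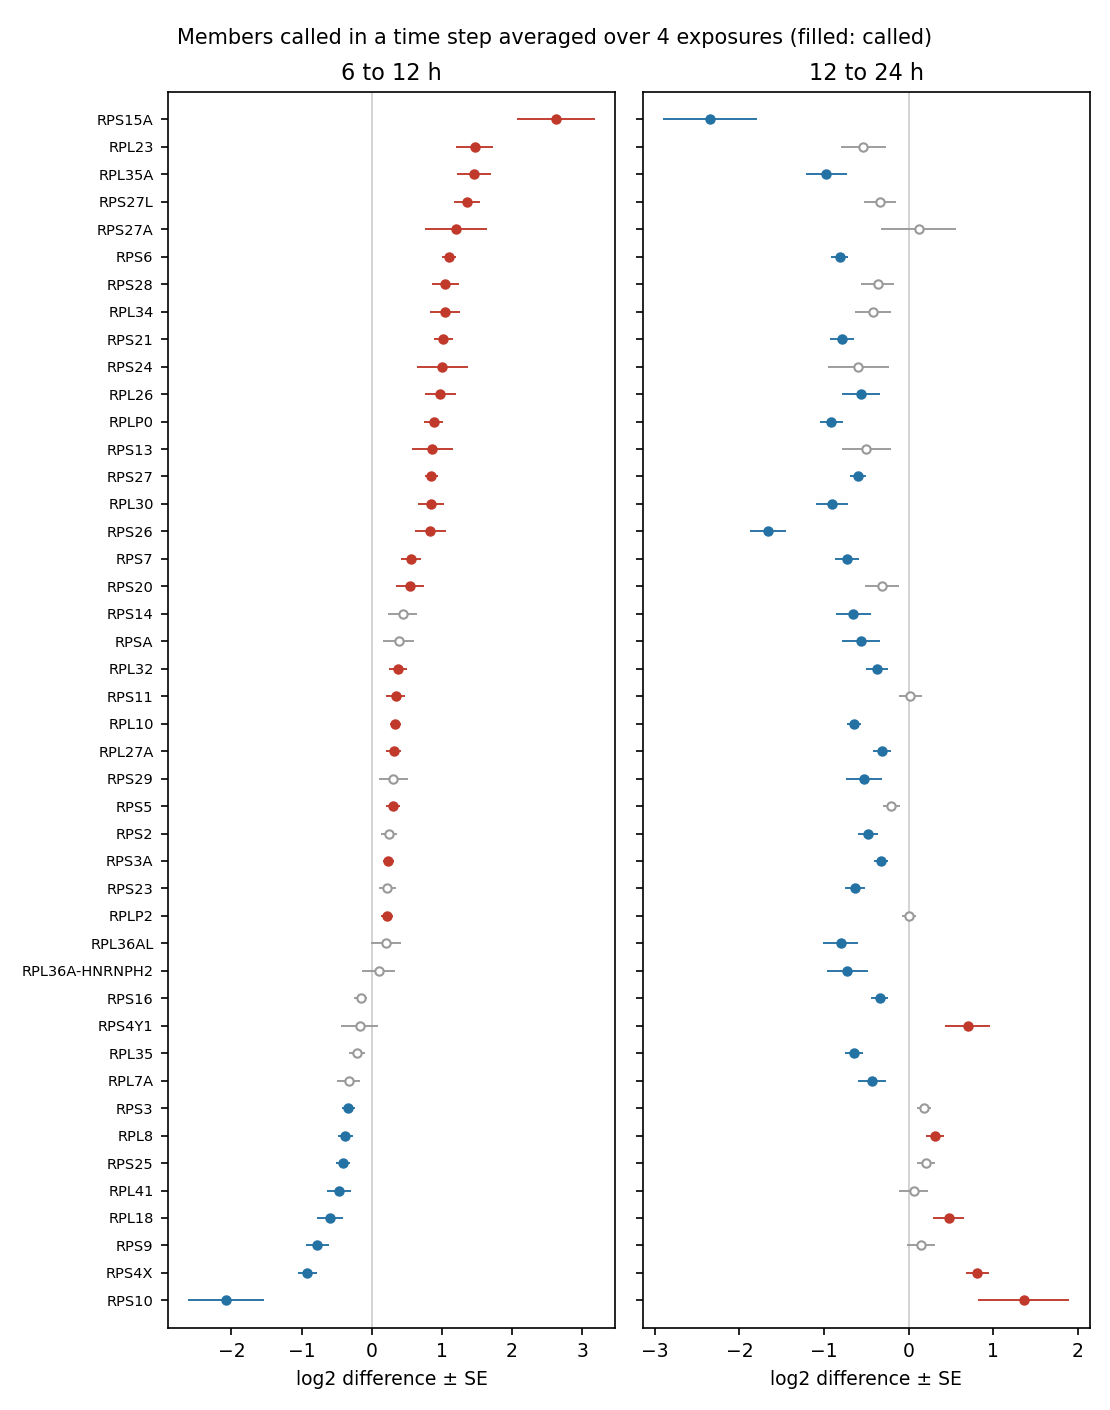
Log2 difference with its standard error from 6 to 12 h (left) and from 12 to 24 h (right), averaged over the 4 exposures, for 44 of the 45 members called in at least 1 of the steps, ordered by the first. Filled points passed (limma adjusted p under 0.05), red for higher and blue for lower. RPS15A, with low counts, is at the top and RPS10, with the lowest mean, at the bottom of the first step.

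In the NoNP cells alone 7 members changed from 6 to 12 h, 8.43% of members against 11.8% of all genes (4.89% higher and 6.87% lower). RPS6, RPS27L and RPS27 rose (log2 0.90, 1.45 and 0.54), and RPS4X, RPL35 and RPS3 were among those that fell (-1.03, -0.79 and -0.49). The count was 2 without 6 h replicate A or 12 h replicate B, and 4 without 6 h replicate B or C or 12 h replicate A. It was 24 with the spread of the 6 libraries alone and 15 with both libraries that stand apart left out.

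From 12 to 24 h in NoNP, 11 members changed, 13.3% against 18.3% of all genes (8.09% higher and 10.2% lower). RPS4X, RPL8 and RPS25 rose (log2 1.46, 0.76 and 0.66). RPS26, RPLP0, RPS6, RPS27L, RPS7 and RPL36A-HNRNPH2 fell (-1.98, -1.16, -0.80, -1.37, -1.01 and -1.65), with RPL36AL and RPS13. The 2 controls at 24 h disagreed for many members, as RPL30 at 2943 and 672 and RPS13 at 241 and 17.4 show. The count was 1 without 24 h replicate B and 33 without 24 h replicate A, 6 without 12 h replicate B, 7 without 12 h replicate C, 2 with both libraries that stand apart left out and 0 with the spread of these libraries alone, and the difference of RPS13 turned to 0.0867 without 24 h replicate B. Without that library the log2 differences were -1.51 for RPS26, -0.44 for RPLP0, -0.43 for RPS6, -0.81 for RPS27L, -0.12 for RPS7, 0.91 for RPS4X, 0.55 for RPL8 and 0.62 for RPS25, and none of these passed. RPL36A-HNRNPH2 passed there at -3.18 and did not pass without 24 h replicate A, at -0.13.

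Read depth moved with time. Libraries had 1313855 to 6403472 reads at 6 h, 2493929 to 6735072 at 12 h and 1357159 to 5242043 at 24 h, and the part of depth in the time differences was not tested. The GC content of the transcripts (GENCODE 29) moved with the calls as well. Among the 25 members that rose from 6 to 12 h its median was 48.1%, and among the 9 that fell 55.2%. Over all tested genes with a transcript it was 43.16% for those that rose and 55.63% for those that fell. From 12 to 24 h the members that rose had a median of 55.2% and those that fell 49.0% (all genes 53.83% and 45.26%). With each library's trend over GC content removed, the counts were 35 from 6 to 12 h (28 higher) and 31 from 12 to 24 h (3 higher), of which 28 and 25 were among the members called without that step. Among the risers 12 of 19 members in the promoter table started with C and 4 pyrimidines, among the fallers 6 of 7, and among those not called 25 of 41.

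No member passed the interaction of exposure and time (0.665% of all genes, 17 members at an unadjusted p under 0.05, edgeR 0). RPS3A had the smallest p, with a limma adjusted p of 0.125, followed by RPS25 and RPL10 at 0.18 each. The count was 18 without NoNP 24 h replicate A, 2 without NoNP 24 h replicate B and 4 with both libraries that stand apart left out.

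Outside the bPEI cells at 6 h, RPS3A lay between 7082 and 12980.3. At 12 h it had 12980.3, 9983 and 11631 with PEG and 11182, 12077 and 9516 with citrate, both overlapping the NoNP values given above. At 24 h it had 10594 and 8841 in NoNP, 9562 and 9896 with bPEI, 9310.3, 8336 and 8393 with PEG and 8182, 8187 and 7082 with citrate. There the citrate libraries lay below both controls. RPL30 had 3115, 2367 and 2484 with PEG and 2080.2, 2169 and 1783 with citrate at 12 h, where every citrate library was below every control. At 24 h it had 1742 and 1865 with bPEI, 1608, 1237 and 1447 with PEG and 1061, 1087 and 952 with citrate, all between the 2 controls, which lay far apart.

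The members differed widely in how much they varied. The largest range between the 12 group means was 3.82 on the log2(value + 1) scale for RPS10, followed by RPS15A (3.23), RPL23 (2.52), RPL35A (2.46) and RPS27L (2.33). RPS10 was at 0, 9.35 and 20.5 at 6 h and 0, 0.281 and 11.8 at 12 h, near the level of a few reads. RPL3, which reaches toward the peptidyl transferase center, had the smallest range (0.29), followed by RPS19 (0.30), RPL37A and RPL37 (0.35 each) and RPL28 (0.39). RPL3 stayed between 949 and 1625 in all 32 libraries and RPS19 between 6618 and 10867. Of the 83 tested members 23 had their lowest group mean with bPEI at 6 h, and 32 had their highest with bPEI at 12 h. The share of all tested genes with their extremes in these groups was not counted, so these numbers only describe the members.

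Paralogs and their partners are set side by side. From 6 to 12 h RPS27 and RPS27L differed by 0.85 and 1.36, both called, while with citrate at 12 h RPS27L fell and RPS27 had -0.34, which did not pass. With bPEI at 6 h RPL26L1 was lower by 1.51, and RPL26 had -0.86, which did not pass. From 12 to 24 h RPL36AL had -0.80, past the threshold, and RPL36A -0.28, which did not pass. RPL7 and RPL7L1 (0.48 and 0.37 from 6 to 12 h) and RPL22L1 (0.33) were not called there. RPS4Y1 was not called with citrate at 12 h (-0.07), where RPS4X was, and the difference within a pair was not tested.

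Other genes of ribosome production were read from lists chosen by function. Over all tested genes 22.2% rose and 21.3% fell from 6 to 12 h, 18.4% rose and 20% fell from 12 to 24 h, and 6.52% were higher and 4.88% lower with citrate on average. Of 42 tested genes of ribosome assembly and rRNA processing, 1 rose (GAR1) and 19 fell from 12 to 24 h, with a median of -0.41, and 7 rose and 5 fell from 6 to 12 h with a median of 0.02. BRIX1, NOP58, EBNA1BP2 and DDX18 had the smallest p in the second step (log2 -1.05, -0.995, -0.83 and -1.29). With bPEI at 6 h none of the 42 was called, with citrate at 12 h RRP1 was higher (1.36), and at 24 h NOLC1 was higher with bPEI, PEG and citrate (2.80, 3.14 and 2.61) while it fell in NoNP from 12 to 24 h (-3.05), the values sharing the 24 h controls. Averaged over times, 7 of the 42 were higher with citrate and none was lower, with RRP1, MRTO4, WDR43 and NCL first (0.96, 0.51, 0.52 and 0.57).

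Of 25 genes of RNA polymerases I and III and their factors, 7 rose and 6 fell from 6 to 12 h and 4 rose and 3 fell from 12 to 24 h. UBTF, which activates rRNA gene transcription, and POLR3A were higher with citrate at 12 h (0.98 and 2.30). Of 15 other genes whose messenger RNAs are known to carry a TOP motif, most of them translation factors, 4 rose and 3 fell from 6 to 12 h and 2 rose and 3 fell from 12 to 24 h. EIF3H rose and EIF4B fell from 6 to 12 h (0.86 and -0.90), HNRNPA1 and PABPC1 fell from 12 to 24 h (-0.82 and -0.42), and none was called with bPEI at 6 h. RACK1, a small subunit protein outside the symbol rule, rose by 0.58 and then differed by -0.42, both past the threshold.

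Of 19 regulators of ribosomal protein synthesis, 6 rose and 2 fell from 6 to 12 h, and 1 rose and 5 fell from 12 to 24 h. With citrate averaged over times 2 were higher and 2 lower. MYC, a transcription factor that raises ribosome production, was higher with citrate at 6 h (1.10) and 12 h (1.17) and with PEG at 12 h (0.84). LARP1, which binds TOP messenger RNAs, was higher with citrate at 12 h (1.07) and fell from 6 to 12 h over the exposures (-1.03). Of 14 genes of ribosome quality control, 3 rose and 4 fell from 6 to 12 h, and 4 rose and 3 fell from 12 to 24 h. TCF25 and GCN1 were higher with bPEI at 6 h (1.49 and 1.42), GCN1 and ZNF598 with citrate at 12 h (1.33 and 1.15), and EIF2AK4 with each coating at 24 h (0.72, 0.71 and 0.74). All these calls are by limma at an adjusted p under 0.05 over all tested genes. Genes outside the members were not followed under the alternative settings or with libraries left out.

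The 70 tested mitochondrial ribosomal protein genes, which encode another ribosome, gave 23 rises and 7 falls from 6 to 12 h (median 0.32) and 5 rises and 21 falls from 12 to 24 h (median -0.25). The cytosolic members, at 25 and 9 of 83 and then 5 and 25, had medians of 0.24 and -0.29. With bPEI at 6 h, where 2.01% of all genes were called (1.32% lower), no mitochondrial gene was called, and the median was -0.15. The cytosolic set had 8 lower members, a count that was 0 without bPEI replicate B, and a median of -0.32. The difference between the sets was not tested.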

How the data were processed

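TempO-Seq libraries of HepG2 cells were deposited as 1 table of 13133 genes and 32 libraries, whose normalized signal the authors made by dividing each library's reads by a size factor. That reading comes from the values: 100.0% became whole reads within 0.01 reads, and the factors matched the median-of-ratios method within 1.6e-13 percent. The sources used here do not give the aligner, the genome build, the counting or how probes were combined. Groups came from the sample labels.

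Genes with a mean of at least 5 (9324, with 3809 below) were tested by limma 3.58.1 in R 4.3.3 on log2(value + 1), with 12 group means, a variance trend and robust estimation, and p-values adjusted by Benjamini-Hochberg over all 9324. Fold differences on this scale are understated for low genes. The alternatives were a pseudocount of 5, no filter or a filter at 20, equal library totals, and edgeR 4.0.16 on recovered reads. Further ones were the replicate letter as a block, the spread of the compared groups alone, and each library of the compared groups left out in turn. After the data were seen, leaving out 2 libraries, group weights and removal of GC trends were added. The code was tested on simulated data. The members and gene lists were chosen with earlier results of these data known. Named genes were RPS3A, RPL30, the 5 highest and lowest by mean level, the 5 most and least variable, paralog pairs, and in each comparison up to 6 called per direction, or the 3 of smallest p where none was called. Other lists gave up to 4 genes by p. RPS7, GAR1, RPL41 and the remaining genes that complete a count were named after their values were seen. Some genes that met these rules are not reported here, though counts include them.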

Additional observations from a re-analysis of the deposited data

Results flagged for a closer look

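RPS4X differed among the 3 coatings at 12 h (limma F test, adjusted p = 0.0493), with the highest mean under citrate. Leaving out each of the 9 libraries in turn lost the call for 7 of them.

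In RPS3A, RPLP0, RPS21 and RPL26L1 every bPEI library lay below every NoNP library at 6 h and above every NoNP library at 12 h. For RPS3A the lowest bPEI and the highest NoNP value at 12 h, given above, were almost equal. Opposite separations were searched only among members already called for a coating against NoNP at a given time. The 6 h side of these genes thus follows in part from that choice. With bPEI at 12 h no member was called, and 64 of 83 members were above 0 (77.1%, against 51.4% of all genes). The search was not made over all members or all genes. The log2 differences at 6 and 12 h were -0.77 and 0.10 for RPS3A, -0.95 and 0.18 for RPLP0, -1.01 and 0.22 for RPS21, and -1.51 and 0.35 for RPL26L1. RPS25 separated the other way at 6 and 24 h, with 0.57 and -0.83 for bPEI and 0.52 and -0.52 for citrate. The change between times was not tested for each coating by itself, and in the interaction of exposure and time over all 12 groups RPS3A had a limma adjusted p of 0.125 and RPS25 of 0.18.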

How the results depend on the processing

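With bPEI 6 h replicate B and NoNP 24 h replicate B left out, the count was 5 for bPEI 6 h, 2 for PEG 6 h, 4 for citrate 6 h, 2 for PEG 12 h, 17 for citrate 12 h, 2 for bPEI 24 h, 12 for PEG 24 h, 14 for citrate 24 h, 6 for bPEI averaged, 25 for PEG averaged, 32 for citrate averaged, 13 for among coatings 12 h, 2 for among coatings 24 h, 15 for NoNP from 6 to 12 h, 2 for NoNP from 12 to 24 h, 4 for the interaction. With the spread of the compared groups alone, the count was 0 for bPEI 6 h, 1 for PEG 6 h, 5 for citrate 6 h, 1 for bPEI 12 h, 1 for PEG 12 h, 15 for citrate 12 h, 0 for bPEI 24 h, 11 for citrate averaged, 14 for among coatings 12 h, 1 for among coatings 24 h, 24 for NoNP from 6 to 12 h, 0 for NoNP from 12 to 24 h. With 1 variance weight per group, the count was 15 for bPEI 6 h, 2 for citrate 6 h, 1 for bPEI 12 h, 2 for PEG 12 h, 14 for citrate 12 h, 0 for bPEI 24 h, 0 for PEG averaged, 3 for citrate averaged, 13 for among coatings 12 h, 16 for NoNP from 6 to 12 h, 1 for NoNP from 12 to 24 h. With equal library totals, the count was 3 for bPEI 6 h, 1 for PEG 12 h, 7 for citrate 12 h, 0 for bPEI 24 h, 1 for PEG 24 h, 4 for PEG averaged. With edgeR, the count was 4 for bPEI 6 h, 1 for PEG 12 h, 0 for bPEI 24 h. With no filter, the count was 0 for bPEI 24 h, 0 for among coatings 12 h. With a filter at 20, the count was 1 for PEG 12 h. With a pseudocount of 5, the count was 1 for PEG 12 h. With GC trends removed, the count was 2 for citrate 12 h, 0 for among coatings 12 h. The ranges that follow leave out only libraries of the groups compared, though every library enters the spread. Leaving out 1 library at a time gave counts of 0 to 21 for bPEI 6 h, 0 to 1 for PEG 12 h, 1 to 5 for citrate 12 h, 0 to 21 for bPEI 24 h, 0 to 9 for PEG 24 h, 0 to 6 for citrate 24 h, 0 to 5 for bPEI averaged, 1 to 17 for PEG averaged, 4 to 22 for citrate averaged, 0 to 1 for among coatings 12 h, 2 to 6 for NoNP from 6 to 12 h, 1 to 33 for NoNP from 12 to 24 h, 0 to 18 for the interaction, and 0 or a count within 1.5 times of the reported one elsewhere. The fall of RPS13 in NoNP from 12 to 24 h was -3.63 without NoNP 24 h replicate A and became 0.0867 without NoNP 24 h replicate B, alone or with bPEI 6 h replicate B, and the fall of RPL8 from 6 to 12 h became 0.15 with GC trends removed. The cause of these shifts was not tested. A fit that leaves a library out of a group of 2 holds a single library there. The share of all genes called was counted only in the main fit and with equal library totals.

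Replicate letters recur across groups, and whether they pair the samples is not known. Deviations from group means of the 44 pairs with the same letter and time correlated at a median of 0.004 (-0.162 to 0.288, 6 over 0.1). For the 84 pairs with different letters the median was 0.001 (-0.249 to 0.286, 7 over 0.1). Deviations within a group of 2 or 3 libraries depend on each other, so these values cannot exclude a pairing. With the letter as a replicate block the count was 15 for bPEI 6 h, 1 for PEG 12 h, 0 for among coatings 12 h, and other counts were within 1.5 times. The spread of the compared groups alone does not apply to the interaction, which uses all groups. Equal library totals moved the median of all genes by over 0.1 on the log2 scale only at 24 h, from 0.10 to 0.20 for bPEI, 0.05 to 0.18 for PEG and 0.04 to 0.21 for citrate. With 2 or 3 libraries a group, and with member levels down to 5.68 normalized reads, small differences were not detectable, and member shares carry counting error only in their intervals.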
